A study of Mus musculus with 16 samples.

Results

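The interferon-induced genes followed here are 40 genes known to be switched on by interferons, measured in lungs of ARF-DTR and wild type mice. They were picked by gene symbol, from lists drawn up when earlier results of these data were known. Of them, 32 are classical targets of type I interferon and 8 are best known as targets of interferon gamma. All 40 were found in the arrays' gene names and passed the brightness filter, out of 25599 genes tested. The type I genes are Isg15, Ifit1, Ifit2, Ifit3, Irf7, Irf9, Stat2, Oas1a, Oas2, Oas3, Oasl1, Oasl2, Mx1, Mx2, Rsad2, Bst2, Usp18, Ifi35, Ifi44, Ddx58, Ifih1, Dhx58, Parp9, Parp14, Dtx3l, Xaf1, Cmpk2, Herc6, Trim25, Eif2ak2, Ifitm3 and Zbp1. The gamma-type genes are Gbp2, Gbp3, Irgm1, Igtp, Ubd, Psmb8, Psmb9 and Tap1.

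Lung RNA of 16 female mouse samples was measured on single-colour arrays, 1 array per sample. ARF-DTR mice carry the diphtheria toxin receptor under the control of the Arf (Cdkn2a) promoter, so that diphtheria toxin (DT) can remove cells in which this promoter is active, whatever their type. The groups were 4 ARF-DTR samples aged 12 months given DT, 4 ARF-DTR samples aged 12 months given PBS, 4 untreated ARF-DTR samples aged 2 months, 2 wild type (WT) samples aged 12 months given DT and 2 WT samples aged 12 months given PBS. The transgene was thus present in all 12 ARF-DTR samples, and WT samples lack it. The mice of 12 months were injected into the peritoneum at intervals of 2 weeks over 1 month, with DT at 50 microgram per kg. The labels name no strain. Whether every sample came from its own mouse is not stated in the labels; the p-values rest on the spread between samples, part or all of which may be technical. Whole lungs were homogenised, so fewer cells of a type and less RNA per cell cannot be told apart.

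Type I interferons act through a receptor that leads to a complex containing Stat2 and Irf9, which binds interferon-stimulated response elements in the promoters of its targets. Interferon gamma acts through another receptor on genes with gamma-activated sites, and it also induces Irf1, which can bind the same elements as the type I complex. In the lung these genes limit virus growth, present antigen and arm macrophages against microbes inside cells.

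The promoters of 7 members are printed: Isg15, Ifit1, Bst2, Irgm1, Psmb9 and Ubd were called in comparisons described below, and Gbp2, which was not, holds the same element as several of them. RefSeq promoters (build GRCm38.p6) were on hand for 32 of the 40 members. In a window of 300 bases around the start site, the core of the interferon-stimulated response element, GAAA followed by any 2 bases and GAAA again, searched on both strands, was present in 12 of 24 type I promoters (50%) and in 4 of 8 gamma-type promoters (50%). Of all 27025 genes with such a promoter, 1079 (3.99%) held it. The lines below give, 5′ to 3′ on the gene's strand, the 150 bases before the start site, with every match of the core on either strand in capitals. Adjacent capitals in Isg15, Bst2 and Irgm1 are overlapping matches. The windows are chr4:156200819-156200968 (minus strand) for Isg15, chr19:34640739-34640888 (plus) for Ifit1, chr8:71537473-71537622 (minus) for Bst2, chr11:48871421-48871570 (minus) for Irgm1, chr3:142620513-142620662 (plus) for Gbp2, chr17:34187331-34187480 (minus) for Psmb9 and chr17:37193742-37193891 (plus) for Ubd.
Isg15: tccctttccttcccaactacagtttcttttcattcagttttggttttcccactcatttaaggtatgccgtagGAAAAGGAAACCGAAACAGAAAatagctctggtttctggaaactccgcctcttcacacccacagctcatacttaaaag
Ifit1: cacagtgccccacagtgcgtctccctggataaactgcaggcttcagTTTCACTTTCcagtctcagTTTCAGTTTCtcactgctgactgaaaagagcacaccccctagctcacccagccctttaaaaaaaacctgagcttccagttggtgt
Bst2: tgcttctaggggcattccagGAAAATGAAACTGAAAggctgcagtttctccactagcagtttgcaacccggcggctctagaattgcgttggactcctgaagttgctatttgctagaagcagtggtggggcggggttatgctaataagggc
Irgm1: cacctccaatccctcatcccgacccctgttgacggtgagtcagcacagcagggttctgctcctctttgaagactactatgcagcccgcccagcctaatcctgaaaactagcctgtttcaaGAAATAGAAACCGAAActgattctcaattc
Gbp2: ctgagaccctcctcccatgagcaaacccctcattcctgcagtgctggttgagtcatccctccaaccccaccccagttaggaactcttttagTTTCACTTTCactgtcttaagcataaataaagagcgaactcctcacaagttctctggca
Psmb9: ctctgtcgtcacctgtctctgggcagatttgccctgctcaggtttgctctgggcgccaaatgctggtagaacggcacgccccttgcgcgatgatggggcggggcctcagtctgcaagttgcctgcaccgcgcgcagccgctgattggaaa
Ubd: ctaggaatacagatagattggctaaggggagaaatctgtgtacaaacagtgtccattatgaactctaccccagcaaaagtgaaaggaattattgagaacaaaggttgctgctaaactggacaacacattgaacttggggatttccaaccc

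Isg15 held 3 matches in this window, Ifit1, Bst2 and Irgm1 2 each and Gbp2 1, all close before the start site. Psmb9 and Ubd held 0. The Psmb9 promoter runs on the opposite strand to that of Tap1, and their 300-base windows share 275 bases. The core of a gamma-activated site, TTCNNNGAA, was in 6 of 24 type I promoters (25%), in 2 of 8 gamma-type promoters (25%) and in 9.55% of all promoters. A match is a description of these letters, not a bound site.

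Levels are given as log2 of the array signal minus the 75th percentile of its array, so that 0 stands for a probe as bright as that percentile and a difference of 1 is a factor of 2 in signal. The percentile lay between 613 and 1088 intensity units, and 55.6% to 66.9% of an array's probes counted as well above background. Of the members, 39 were well above background on all 16 arrays and Ubd on 12. The 16 arrays filled 2 slides. Slide 1 held all ARF-DTR samples aged 2 months and all aged 12 months given PBS, and slide 2 held the ARF-DTR samples given DT and all WT samples. Over all genes, the median absolute log2 difference of a pair of arrays was 0.147 within a group, 0.175 for pairs from different groups that shared a slide and 0.267 for pairs from different slides. For any comparison between the slides, the groups and the slides cannot be told apart. Such comparisons are DT against PBS in ARF-DTR mice, ARF-DTR DT against 2 months, and ARF-DTR against WT with PBS. ARF-DTR DT against either WT group, WT DT against WT PBS, and 12 against 2 months in ARF-DTR mice with no DT lie within a slide.

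As a group the members were higher on the ARF-DTR DT arrays than on the ARF-DTR PBS arrays. To describe the list on each array, the median over its genes of the difference from each gene's 16-array mean was taken. For the 32 type I genes this median was 0.13, 0.06, 0.58 and 0.08 in the ARF-DTR DT arrays (replicates 1 to 4), -0.24, -0.33, -0.18 and -0.17 in the ARF-DTR PBS arrays, -0.01, 0.19, -0.16 and -0.11 at 2 months, -0.07 and 0.21 in WT DT and -0.04 and 0.18 in WT PBS. All 4 DT arrays lay above all 4 PBS arrays of ARF-DTR mice, but only DT replicate 3 lay above the highest array of each of the other 4 groups. For the 8 gamma-type genes it was 0.10, 0.12, 0.77 and 0.19 in ARF-DTR DT, -0.16, -0.48, -0.24 and -0.08 in ARF-DTR PBS, -0.23, -0.04, -0.40 and -0.28 at 2 months, -0.05 and 0.54 in WT DT and -0.01 and 0.49 in WT PBS. Here too the ARF-DTR DT arrays lay above the PBS arrays of that genotype and overlapped with both WT groups.

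**Figure D1:**
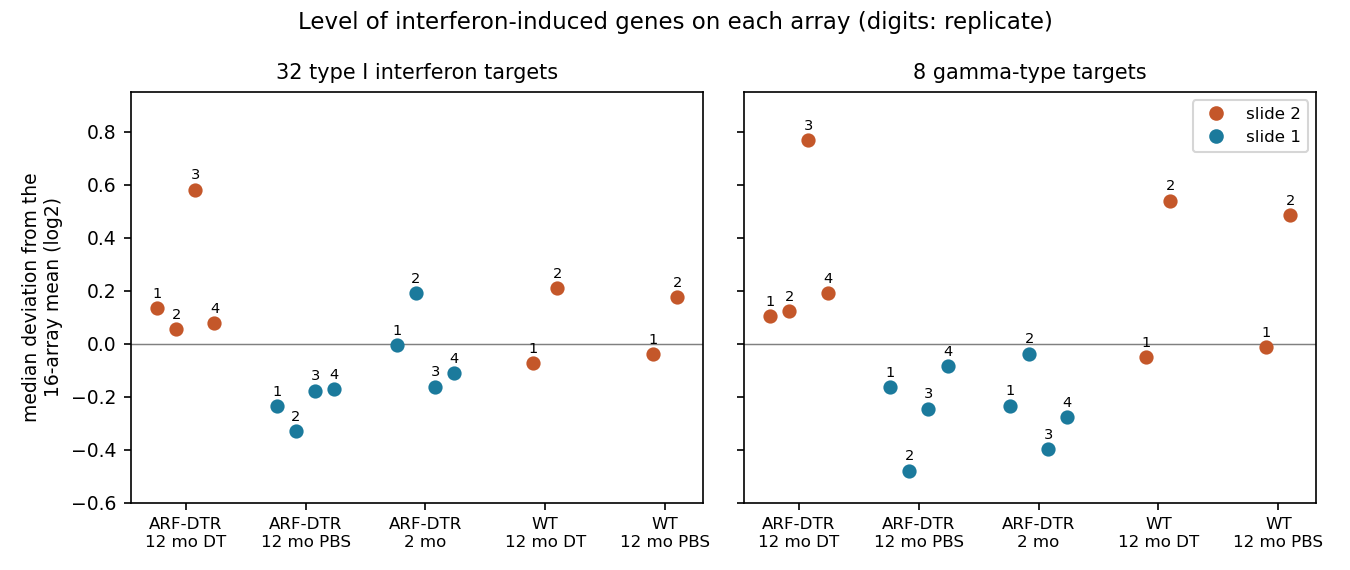
Median difference from the 16-array gene mean (log2) of the 32 type I genes and of the 8 gamma-type genes, 1 point per array, by group from ARF-DTR 12 months DT to WT PBS, with digits for the replicate and colours for the slide. DT replicate 3 stands at 0.58 for the type I genes and 0.77 for the gamma-type genes, and the 4 ARF-DTR PBS arrays lie below 0 in both panels.

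DT-treated ARF-DTR lungs had higher levels of many type I targets than PBS-treated ones. With limma, 15 of the 32 type I genes passed a Benjamini-Hochberg adjusted p of 0.05 (over all genes tested) and were higher, and 0 were lower. The background in this comparison is high: 29.3% of all genes tested passed, 15.8% higher and 13.4% lower. The median log2 difference of the type I genes was 0.42, with 32 of 32 above 0, against 0.00 over all genes. The 4 DT and 4 PBS arrays did not overlap and DT was higher for 20 of the 32 genes, against 15.8% of all genes.

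Isg15, a ubiquitin-like modifier attached to proteins during antiviral defence, differed the most. Its level was 3.27, 3.31, 4.52 and 3.46 in ARF-DTR DT lungs, against 2.38, 2.26, 2.37 and 2.09 in ARF-DTR PBS lungs. Every DT array lay above every PBS array, and replicate 3 stood far above the other 3 DT arrays. The means were 3.64 ± 0.59 with DT and 2.28 ± 0.13 with PBS (SD, n = 4 each), a log2 difference of 1.37 ± 0.25 (SE, limma adjusted p = 0.00193) or 2.58-fold.

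The Ifit genes encode proteins that bind viral RNA and block its translation. Ifit1 was at 0.43, 0.34, 1.45 and 0.52 in ARF-DTR DT lungs, against -0.28, -0.54, -0.19 and 0.00 in ARF-DTR PBS lungs. The groups did not overlap, and the log2 difference was 0.94 ± 0.23 (SE, limma adjusted p = 0.00882). Ifit3 was at 2.72, 2.82, 3.84 and 2.86 with DT, against 2.18, 2.22, 2.38 and 2.30 with PBS, again with no overlap and a difference of 0.79 ± 0.21 (adjusted p = 0.0137). Ifit2 differed by 0.22 (adjusted p = 0.0574) and did not pass.

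Among the other antiviral effectors, Ifi44, an interferon-induced protein of the cytoplasm, was at 0.09, -0.00, 1.36 and 0.20 in ARF-DTR DT lungs, against -0.72, -0.97, -0.48 and -0.53 in ARF-DTR PBS lungs. The groups were apart and the difference was 1.09 ± 0.26 (SE, limma adjusted p = 0.00857). Bst2, or tetherin, which holds budding virions at the cell surface, was at 4.01, 4.01, 4.64 and 4.24 with DT, against 3.47, 3.58, 3.49 and 3.11 with PBS. Its difference of 0.81 ± 0.14 had the smallest adjusted p of the members, 0.00141. The oligoadenylate synthetases make the messenger that activates RNase L. Oas1a was at 3.14, 3.00, 3.95 and 3.13 with DT, against 2.56, 2.09, 2.52 and 2.65 with PBS, a difference of 0.85 ± 0.19 (adjusted p = 0.00648). Oas2 was higher by 0.63 ± 0.20 (adjusted p = 0.0312), while Oas3 (0.72, adjusted p = 0.110), Oasl1 (0.60, 0.0552) and Oasl2 (0.48, 0.0903) did not pass. The Oas genes are near-identical in parts, and a probe may also bind RNA of another member of the family.

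Mx1 and Mx2, dynamin-like GTPases that block virus replication, were higher by 0.52 ± 0.15 (SE, limma adjusted p = 0.0223) and 0.57 ± 0.17 (adjusted p = 0.0237). Xaf1, a pro-apoptotic partner of inhibitor-of-apoptosis proteins, was higher by 0.69 ± 0.14 (adjusted p = 0.00348). Eif2ak2, the RNA-dependent kinase PKR that stops translation, was higher by 0.42 ± 0.10 (adjusted p = 0.00978). Rsad2 (viperin, which halts the growth of viral RNA) was at -0.21, 0.25, 0.69 and 0.17 with DT, against -0.41, 0.46, -0.18 and -0.53 with PBS. The groups overlapped and the difference of 0.39 had an adjusted p of 0.506. Cmpk2 (0.28), Herc6 (0.20) and Ifitm3 (0.25), which blocks virus fusion, did not pass either.

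Among sensors and their helpers, Ddx58 (RIG-I, a sensor of viral RNA) was higher by 0.43 ± 0.08 (SE, limma adjusted p = 0.00296) and Trim25, the ubiquitin ligase that activates it, by 0.31 ± 0.08 (adjusted p = 0.0153). Ifih1 (MDA5), at 0.18, and Dhx58 (LGP2), at 0.33 with an adjusted p of 0.0784, did not pass. Zbp1, a sensor of nucleic acids that can start cell death, was at 0.95, 0.63, 2.43 and 1.22 in ARF-DTR DT lungs, against 0.68, -0.07, 0.49 and 0.54 in ARF-DTR PBS lungs. The groups overlapped by 1 PBS array, and its difference of 0.90 ± 0.32 had an adjusted p of 0.0532.

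Of the transcription factors and regulators of the pathway, Irf9, the DNA-binding part of the type I complex, was higher by 0.40 ± 0.11 (SE, limma adjusted p = 0.0159). Stat2, its partner, was at 2.09, 2.15, 2.41 and 1.98 in ARF-DTR DT lungs, against 1.97, 2.02, 2.04 and 2.07 in ARF-DTR PBS lungs. The groups overlapped and its difference of 0.14 ± 0.11 did not pass (adjusted p = 0.377). Irf7, which amplifies type I interferon production, was at -0.69, -0.81, 1.09 and -0.95 with DT, against -1.26, -1.14, -0.96 and -1.52 with PBS. Only DT replicate 3 lay above 0, the means were -0.34 ± 0.96 with DT and -1.22 ± 0.24 with PBS (SD, n = 4 each), and the difference of 0.88 ± 0.36 did not pass (adjusted p = 0.0829). Usp18, which removes Isg15 from proteins and damps the receptor, passed with overlapping groups (0.39 ± 0.14, adjusted p = 0.0476). Parp9 (0.26) and Dtx3l (0.34), which act as a pair, Parp14 (0.23) and Ifi35 (0.14) did not pass.

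**Figure D2:**
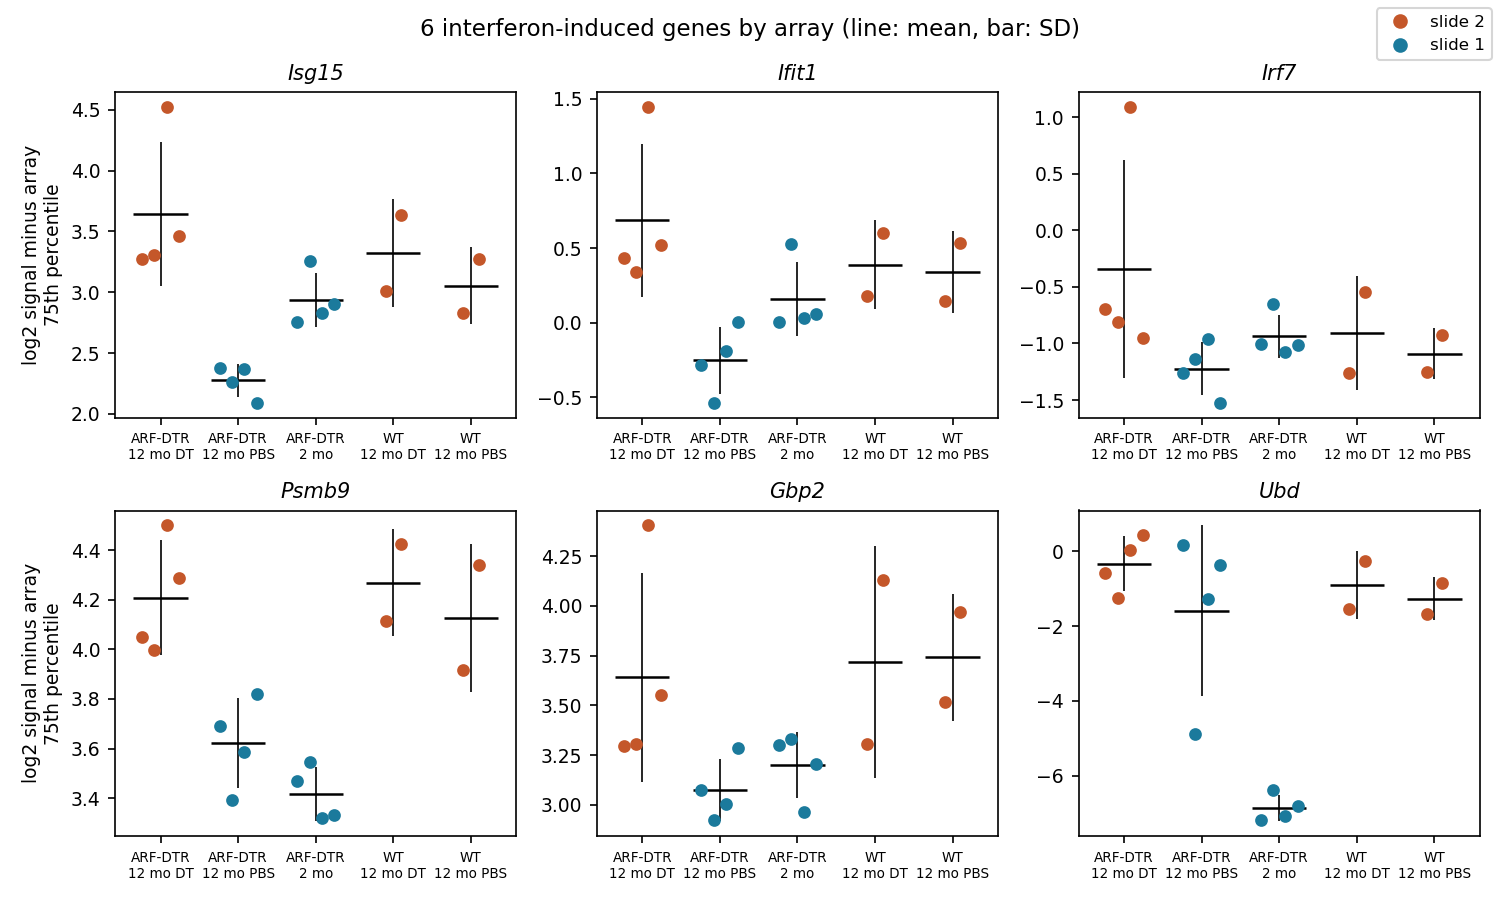
Log2 signal minus the array's 75th percentile of Isg15, Ifit1, Irf7, Psmb9, Gbp2 and Ubd, 1 point per array by group, with the mean (line) and SD (bar) of each group and colours for the slide. The 4 ARF-DTR DT arrays of Isg15 lie between 3.27 and 4.52, above the 4 ARF-DTR PBS arrays (2.09 to 2.38), and the 4 arrays at 2 months show Ubd between -7.18 and -6.39.

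Some gamma-type genes were also higher in this comparison. With limma, 3 of the 8 passed and were higher with DT (background 15.8% higher), 0 were lower, and 4 of the 8 had groups that did not overlap (background 15.8%). Their median log2 difference was 0.55, with 8 of 8 above 0, against 0.42 for the type I genes and 0.00 over all genes. Psmb8 and Psmb9 are catalytic subunits of the immunoproteasome, which cuts peptides for antigen presentation. Psmb9 was at 4.05, 4.0, 4.50 and 4.29 in ARF-DTR DT lungs, against 3.69, 3.39, 3.59 and 3.82 in ARF-DTR PBS lungs, a difference of 0.59 ± 0.13 (SE, limma adjusted p = 0.00675). Psmb8 was at 3.77, 3.63, 4.12 and 3.88 with DT, against 3.50, 3.14, 3.34 and 3.47 with PBS, a difference of 0.49 ± 0.12 (adjusted p = 0.00793). Neither gene's groups overlapped. Tap1, the peptide transporter whose promoter lies back to back with that of Psmb9, differed by 0.25 ± 0.15 and did not pass (adjusted p = 0.229).

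Irgm1, a GTPase that guards host membranes against intracellular microbes, was at 2.47, 2.39, 3.07 and 2.55 in ARF-DTR DT lungs, against 2.19, 1.81, 1.85 and 2.18 in ARF-DTR PBS lungs. The groups were apart and the difference was 0.62 ± 0.17 (SE, limma adjusted p = 0.0156). Its relative Igtp (0.54) did not pass. Gbp2, a guanylate-binding protein that coats microbes and their vacuoles, was at 3.30, 3.31, 4.41 and 3.55 with DT, against 3.08, 2.92, 3.01 and 3.29 with PBS. The DT arrays lay above the PBS arrays, 2 of them by little, and the difference of 0.57 ± 0.24 did not pass (adjusted p = 0.0881), nor did that of Gbp3 (0.51). Ubd (FAT10), a ubiquitin-like modifier that marks proteins for the proteasome, was at -0.57, -1.24, 0.03 and 0.45 with DT, against 0.18, -4.89, -1.28 and -0.35 with PBS. The groups overlapped, PBS replicate 2 was far below the rest, and the difference of 1.26 ± 0.85 did not pass (adjusted p = 0.285).

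The array of DT replicate 3 stood above the others of its group in nearly all members. It was the highest of the 4 ARF-DTR DT arrays for 38 of the 40 members, 31 type I and 7 gamma-type, against 28.9% of all genes, and the highest of all 16 arrays for 30 members. It lay above the mean of the other 3 DT arrays by a median of 0.53 for type I genes, 0.54 for gamma-type genes and 0.01 over all genes, and by 1.91 for Irf7. Without it 13 of the 40 members passed instead of 18, and of all genes 5470 passed instead of 7494. The 5 members that did not were Irf9, Mx1, Mx2, Oas2 and Usp18. Without DT replicate 4 the count over all genes was 5378. The median difference without DT replicate 3 was 0.33 for type I and 0.37 for gamma-type genes. In that fit Isg15 still passed at 1.07 and Ifit1 at 0.68. The same 13 members passed in each of the 8 fits that left out 1 of the DT or PBS arrays. Leaving out 1 PBS array of ARF-DTR mice also ended the call of Mx1 (replicates 2, 3 or 4), Mx2 (2 or 4), Oas2 (any of the 4) and Usp18 (1, 2 or 3), and so did leaving out DT replicate 1 or 4 for Usp18.

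An array that was highest for most members was also found in 3 of the other groups. At 2 months replicate 2 was the highest for 36 of 40 members, against 21.7% of all genes. Among the pairs of WT arrays, replicate 2 was the higher for 37 of 40 members with DT and for 37 of 40 with PBS, against 49.3% and 43.5% of all genes. In the ARF-DTR PBS group no array was the highest for more than 14 members. The members thus varied together between arrays of the same group, and their counts are not counts of independent genes.

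**Figure D3:**
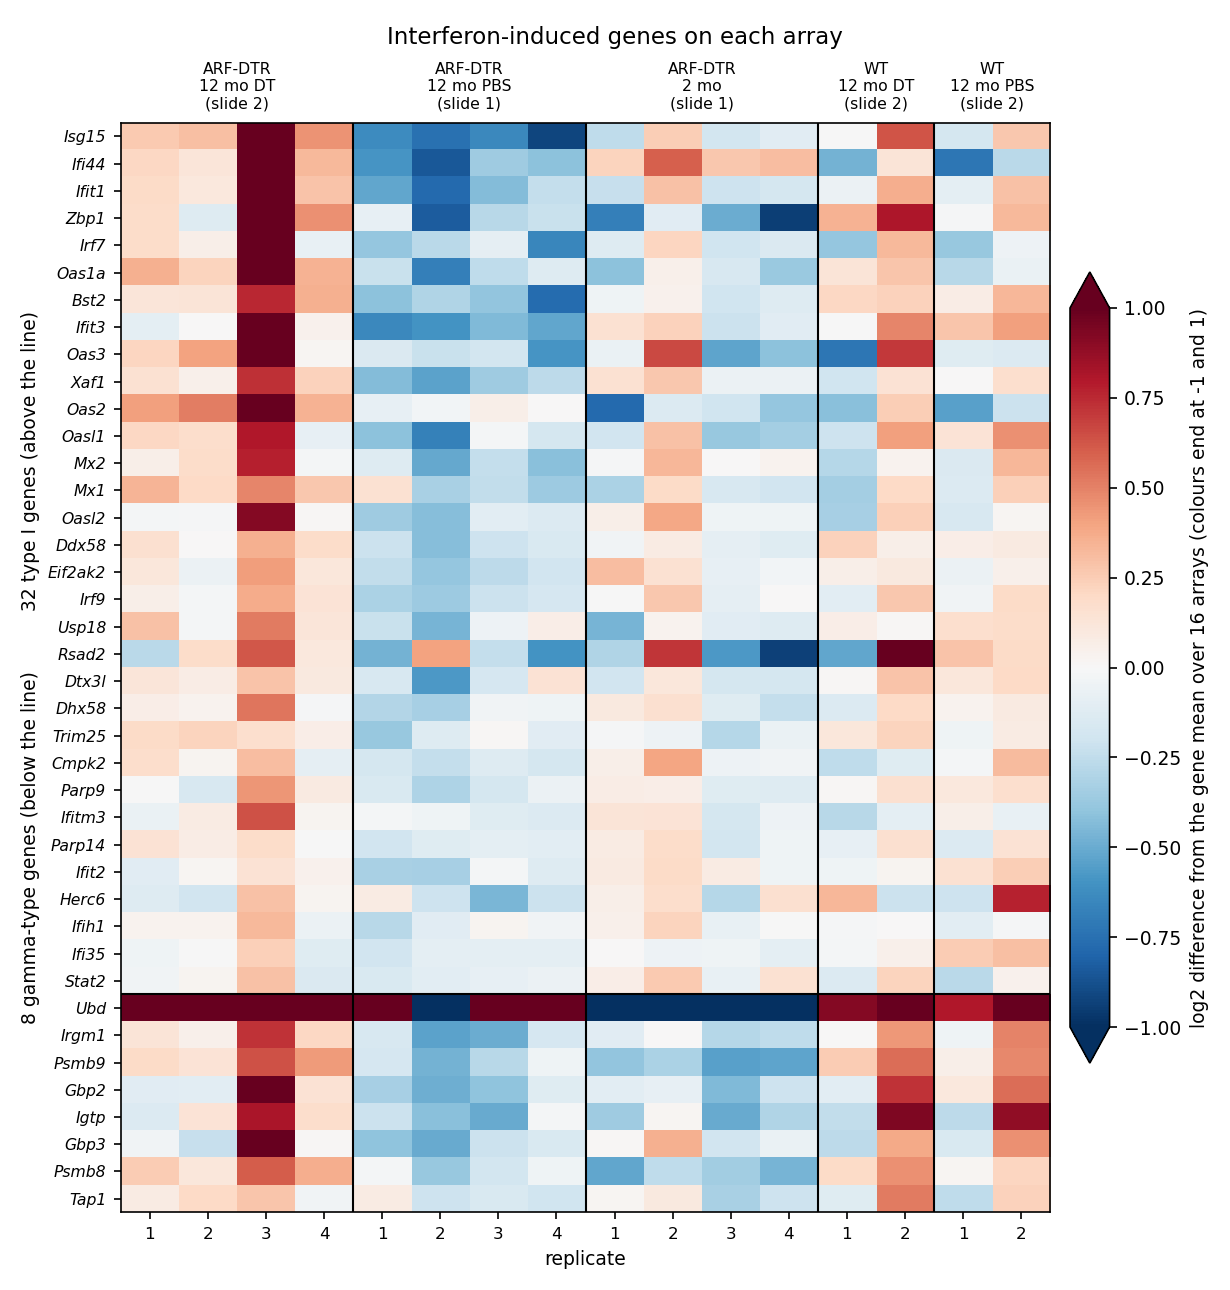
Log2 difference of each of the 40 members (rows, type I above the line and gamma-type below) from its mean over 16 arrays, by array (columns, grouped from ARF-DTR 12 months DT to WT PBS), with colours ending at -1 and 1. DT replicate 3 is dark red for most members, and replicate 2 at 2 months and in both WT groups is the reddest of its group.

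Few members differed between DT-treated ARF-DTR lungs and WT lungs hybridised on the same slide. Against WT PBS, limma called 1 of 32 type I genes, which was higher (background 2.12% higher and 3.39% lower), and 0 of 8 gamma-type genes. At an unadjusted p under 0.05 it was 4 type I and 0 gamma-type genes, against 22.2% of all genes. The medians were 0.15 for type I and 0.07 for gamma-type genes, against 0.00 over all genes, and the gamma-type median was -0.17 without WT PBS replicate 1 and 0.33 without replicate 2. The groups did not overlap for 4 type I genes that were higher and 2 that were lower, against 16.1% and 17.9% of all genes. The called gene was Oas2, at 2.09, 2.19, 2.88 and 2.02 in ARF-DTR DT lungs, against 1.13 and 1.46 in WT PBS lungs, with a difference of 1.0 ± 0.24 (SE, limma adjusted p = 0.0340). The groups were apart, but without DT replicate 3 the difference was 0.80 (adjusted p = 0.0546), and without WT PBS replicate 1 or 2 it did not pass either (adjusted p = 0.255 and 0.0938). Without DT replicate 3 the type I median was 0.03, and the 1 call was Ifi35, a binding partner of Nmi, which was lower (-0.33, adjusted p = 0.0241).

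The genes that led the comparison with ARF-DTR PBS did not pass here. Isg15 was at 3.27, 3.31, 4.52 and 3.46 in ARF-DTR DT lungs, against 2.83 and 3.28 in WT PBS lungs. Of the DT arrays 3 lay above both WT arrays and the other between them, and the groups differed by 0.59 ± 0.30 (SE, limma adjusted p = 0.278). Ifi44 differed by 1.03 ± 0.32 (adjusted p = 0.0774), Oas1a by 0.70 (0.102), Irf7 by 0.75 (0.349) and Ifit1 by 0.35 (0.501). The gamma-type genes Psmb8 (0.21, adjusted p = 0.408), Psmb9 (0.08, 0.820), Ubd (0.93, 0.648), Irgm1 (0.05), Gbp2 (-0.10) and Tap1 (0.14) did not pass. A p above the threshold with 2 WT samples does not show that the levels were alike.

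Against WT lungs that also received DT, limma called 0 of the 40 members (background 0.891% of all genes), with 3 at an unadjusted p under 0.05, against 15.6% of all genes. The medians were 0.12 for type I and -0.03 for gamma-type genes, against 0.01 over all genes. The type I median was 0.00 without DT replicate 3 of ARF-DTR mice and 0.27 without WT DT replicate 2, and the gamma-type median -0.20 without WT DT replicate 1 and 0.31 without replicate 2. A second probe of Ifih1, not the one used, passed here (0.60, adjusted p = 0.0263 over all kept probes). That probe was dim, at a mean level of -3.43 over the 16 arrays. The smallest adjusted p was that of Oas2, at 0.71 (0.183), and Ifitm3 (0.36, 0.298), Ifi44 (0.71, 0.307) and Isg15 (0.32, 0.682) did not pass. In 4 type I genes the ARF-DTR DT arrays all lay above the WT DT arrays, against 14.2% of all genes.

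**Figure D4:**
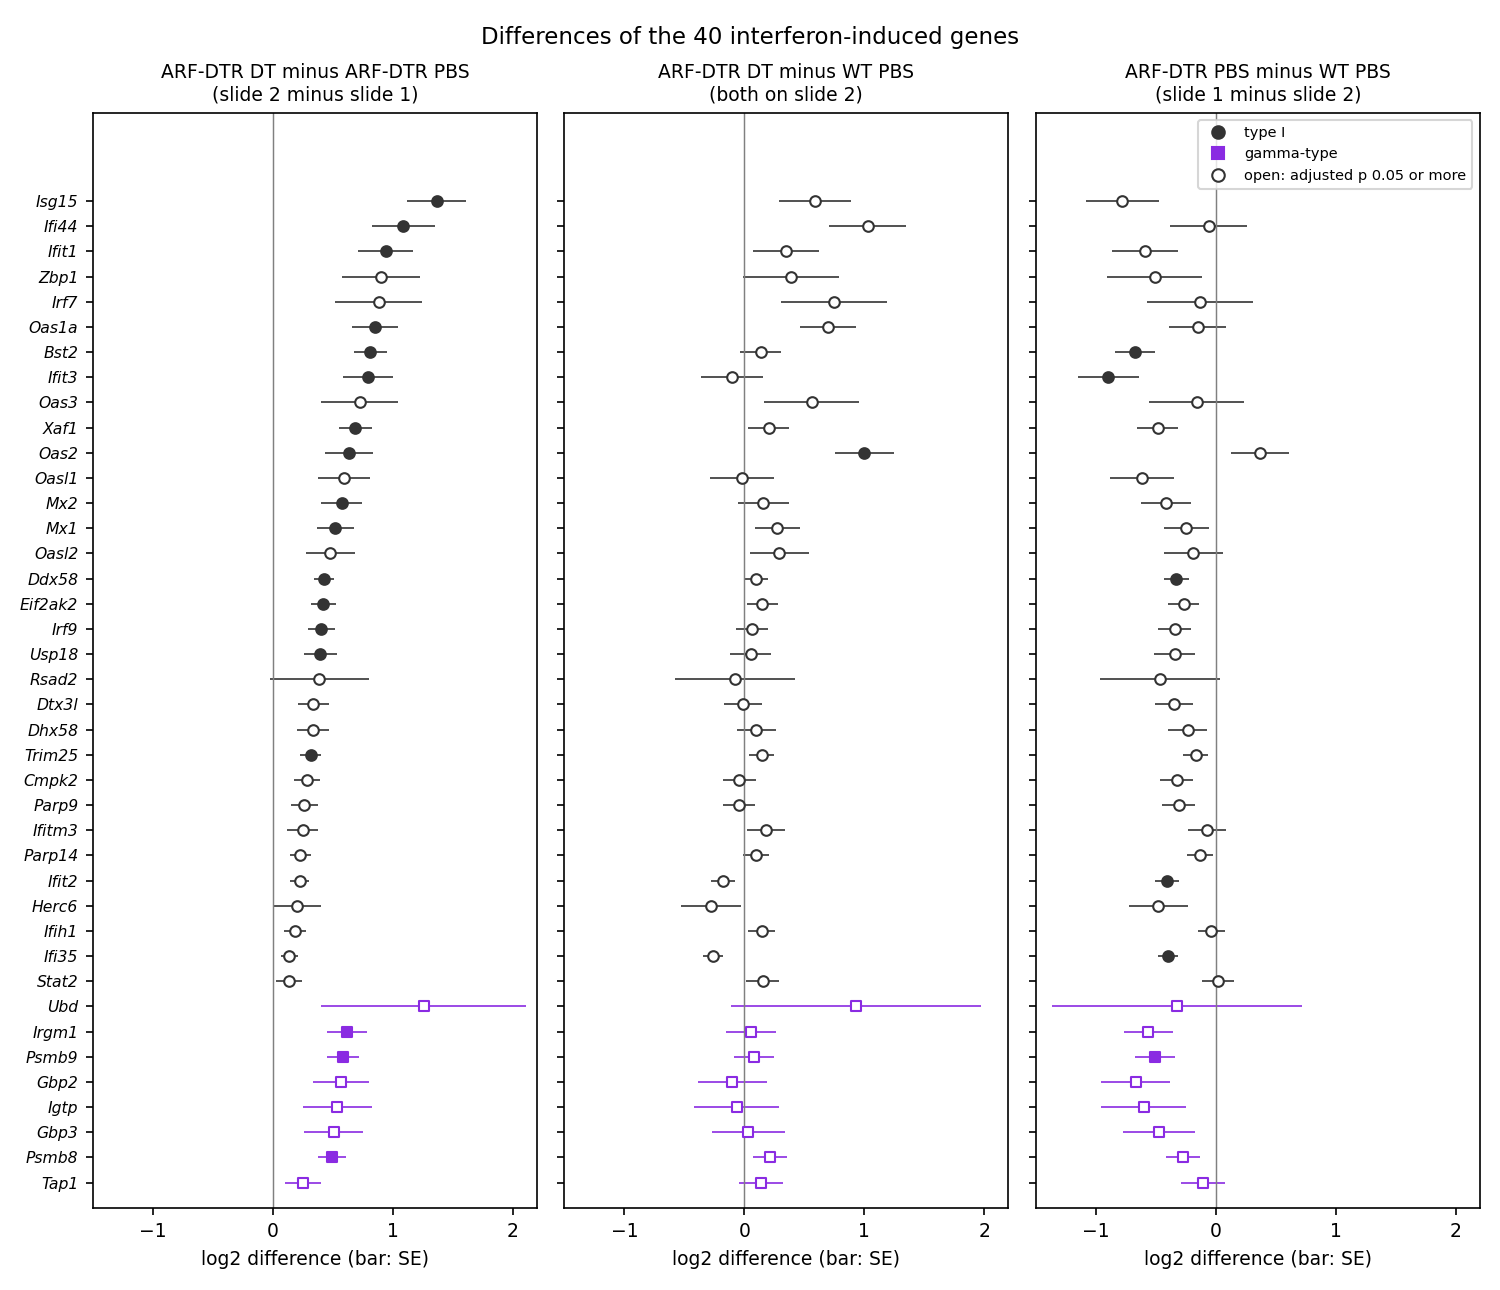
Log2 differences (points, with SE bars) of the 40 members in ARF-DTR DT minus ARF-DTR PBS, ARF-DTR DT minus WT PBS and ARF-DTR PBS minus WT PBS, with circles for type I and squares for gamma-type genes, filled where the adjusted p was under 0.05. In the left panel all 40 points lie above 0 and 18 are filled, in the middle panel 1 is filled, and in the right panel 6 are filled and lie below 0.

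DT itself, given to WT mice, went with no called change of the members. With limma 0 of 40 passed (background 0.184% of all genes), and 1 had an unadjusted p under 0.05, against 12.7% of all genes. The median difference was 0.02 for type I and 0.09 for gamma-type genes, against -0.02 over all genes. Both turned with 1 array: they were -0.15 and -0.25 without WT DT replicate 2, and 0.14 and 0.36 without WT DT replicate 1. Isg15 was at 3.01 and 3.64 in WT DT lungs, against 2.83 and 3.28 in WT PBS lungs, so that the groups overlapped (0.27 ± 0.35 SE, limma adjusted p = 0.823). The gene with the smallest adjusted p was Ifi35, at 2.76 and 2.83 in WT DT lungs, against 3.04 and 3.08 in WT PBS lungs (-0.26 ± 0.10, adjusted p = 0.270). Next came Cmpk2, a mitochondrial nucleotide kinase, at -0.34 (0.404). Ifit1 (0.05), Irf7 (0.18), Ubd (0.35), Psmb8 (0.20), Tap1 (0.21) and Gbp2 (-0.02) did not pass. Groups of 2 and 2 did not overlap for 5 type I genes that were higher and 5 that were lower, against 18.8% and 24.8% of all genes.

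The difference between the effect of DT in ARF-DTR and in WT mice was tested as an interaction. With limma 0 of 40 members passed (background 2.11% of all genes), and 12, all of type I, had an unadjusted p under 0.05, against 21.3% of all genes. Second probes of Ifih1 (0.83, adjusted p = 0.0221 over all kept probes) and Cmpk2 (0.97, 0.0367) passed, while the probes used for these genes did not. The second Ifih1 probe was dim, at a mean level of -3.43 over the 16 arrays. The interaction was above 0 for 31 of 32 type I and 8 of 8 gamma-type genes, with medians of 0.45 and 0.55, against 0.04 over all genes. The gamma-type median was 0.22 without WT DT replicate 1 and 0.88 without replicate 2. The smallest adjusted p values were those of Ifi35 (0.40 ± 0.12 SE, 0.0909), Xaf1 (0.80 ± 0.24, 0.0918) and Bst2 (0.80, 0.0921). Isg15 stood at 1.1 ± 0.43 (adjusted p = 0.168), Ifit1 at 0.89 (0.215), Irgm1 at 0.62 (0.237) and Psmb9 at 0.44 (0.290). Stat2, at -0.02, was the exception below 0. In this test the ARF-DTR effect runs between slides and the WT effect within 1 slide, so here too slide and treatment cannot be told apart.

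With PBS, ARF-DTR lungs (slide 1) had lower levels of several members than WT lungs (slide 2). With limma 5 of 32 type I genes passed and were lower, and 0 were higher, against 12.7% of all genes lower and 10.9% higher. The type I median was -0.33, with 2 of 32 genes above 0 (Oas2 and Stat2), against -0.02 over all genes. The ARF-DTR arrays all lay below the WT arrays for 17 type I genes, against 26.9% of all genes, and all above for 1, against 21.8%. Ifit3 was at 2.18, 2.22, 2.38 and 2.30 in ARF-DTR PBS lungs, against 3.09 and 3.23 in WT PBS lungs, a difference of -0.89 ± 0.26 (SE, limma adjusted p = 0.0249). Bst2 was at 3.47, 3.58, 3.49 and 3.11 in ARF-DTR PBS lungs, against 3.96 and 4.22 in WT PBS lungs (-0.67 ± 0.17, adjusted p = 0.0135). Neither gene's groups overlapped. Ifit2 (-0.40 ± 0.10, 0.0129), Ifi35 (-0.40 ± 0.08, 0.00593) and Ddx58 (-0.33 ± 0.10, 0.0348) also passed. Isg15 (-0.78 ± 0.30, 0.0796), Ifit1 (-0.59, 0.139), Irf7 (-0.13) and Stat2 (0.02) did not.

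Of the gamma-type genes 1 of 8 passed in that comparison, Psmb9, which was lower (-0.51 ± 0.16 SE, limma adjusted p = 0.0415). The gamma-type median was -0.49, with 0 of 8 genes above 0, and was -0.75 without WT PBS replicate 1 and -0.17 without replicate 2. The type I median was -0.21 without WT PBS replicate 2. For 5 of the 8 the ARF-DTR arrays all lay below the WT arrays (background 26.9%). Gbp2 was at 3.08, 2.92, 3.01 and 3.29 in ARF-DTR PBS lungs, against 3.52 and 3.97 in WT PBS lungs, and did not pass (-0.67, adjusted p = 0.112). Psmb8 (-0.28, 0.176), Ubd (-0.33) and Tap1 (-0.11) did not pass. Over the 6 fits that each left out 1 array, Ddx58 lost its call in 5, Psmb9 in 4, Ifit3 in 3, Ifit2 in 2, and Bst2 and Ifi35 in 1 each. Of the 6 calls, 3 were left without ARF-DTR PBS replicate 1, where 4534 of all genes passed instead of 6044. A fit without 1 WT PBS array rests on 1 sample of that group, so that only differences are given for it. Psmb9 was at -0.72 without WT PBS replicate 1 and at -0.29 without replicate 2, and Bst2 at -0.81 and -0.54.

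Between 12 and 2 months, compared within slide 1, 1 member was called. The samples of 12 months were injected with PBS and those of 2 months were untreated, so age and injection cannot be told apart. Between ARF-DTR lungs of 12 months given PBS and of 2 months, limma called 0 of 32 type I genes (11 at an unadjusted p under 0.05, against 20% of all genes) and 1 of 8 gamma-type genes, which was higher, against 2.73% of all genes higher and 3.41% lower. The type I median was -0.20, with 4 of 32 genes above 0, and the gamma-type median -0.01, against -0.03 over all genes. In 12 type I genes the 12-month arrays all lay below the 2-month arrays, against 7.97% of all genes, and in 1 all above, against 5.02%. The type I genes nearest to the threshold were Eif2ak2 (-0.36, adjusted p = 0.0583) and Ifi44 (-0.90, 0.0608). Ifi44 was at -0.72, -0.97, -0.48 and -0.53 at 12 months, against 0.10, 0.47, 0.15 and 0.19 at 2 months, and the groups were well apart. Isg15 (-0.66 ± 0.25 SE, 0.145), Ifit1 (-0.41), Irf7 (-0.29) and Stat2 (-0.20) did not pass. Leaving out PBS replicate 3 brought in Ifit2 (-0.34, adjusted p = 0.0357), and leaving out replicate 3 at 2 months brought in Eif2ak2 (-0.42, adjusted p = 0.0375).

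The member called between these ages was Ubd. It was at 0.18, -4.89, -1.28 and -0.35 in ARF-DTR lungs of 12 months given PBS, against -7.18, -6.39, -7.09 and -6.81 at 2 months. It was not well above background on any of the 4 arrays at 2 months, so its fold is a lower bound. For that bound each 2-month value was raised to the dimmest probe of its array that still counted as well above background. Ubd was at least 18.6-fold higher at 12 months (limma adjusted p = 0.00329). The bound was 12.4-fold without PBS replicate 1 and 39.9-fold without PBS replicate 2. The other gamma-type genes did not pass, among them Psmb8 (0.24, adjusted p = 0.271), Gbp2 (-0.13) and Tap1 (-0.01).

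DT-treated ARF-DTR lungs of 12 months were also higher in several members than lungs of 2 months. With limma 8 of 32 type I and 3 of 8 gamma-type genes passed and were higher, and 0 were lower, against 14.8% of all genes higher and 30.7% in either direction. The medians were 0.22 for type I and 0.49 for gamma-type genes, against -0.03 over all genes. Groups did not overlap and DT was higher for 6 type I and 4 gamma-type genes, against 14.6% of all genes. The type I genes with the largest differences were Zbp1 (1.1 ± 0.32 SE, limma adjusted p = 0.0207), Oas2 (0.99 ± 0.20, 0.00255), Oas1a (0.75 ± 0.19, 0.0105) and Isg15 (0.71 ± 0.25, 0.0452). Oas2 was at 2.09, 2.19, 2.88 and 2.02 in ARF-DTR DT lungs, against 0.90, 1.54, 1.48 and 1.29 at 2 months, and the groups did not overlap. Mx1 (0.45), Bst2 (0.42), Usp18 (0.40) and Trim25 (0.27) passed as well, with adjusted p from 0.0303 to 0.0448. Ifit1 (0.53, 0.0940), Irf7 (0.60) and Stat2 (-0.07) did not.

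Of the gamma-type genes Ubd was at least 44.4-fold higher than at 2 months (limma adjusted p = 0.000161), by the same bound as above. Psmb8 was at 3.77, 3.63, 4.12 and 3.88 in ARF-DTR DT lungs, against 3.00, 3.27, 3.17 and 3.06 at 2 months (0.73 ± 0.12 SE, adjusted p = 0.000569). Psmb9 was higher by 0.79 ± 0.13 (adjusted p = 0.000861). The groups of Psmb8 did not overlap. Gbp2 (0.44, 0.179) and Tap1 (0.24) did not pass. Oas2, Oas1a, Ubd, Psmb8 and Psmb9 passed in each of the 8 fits that left out 1 array, while without DT replicate 3 the type I median was 0.07 and the gamma-type median 0.32. The count of 11 was 6 without that array, 7 without DT replicate 4, 6 without replicate 3 at 2 months and 5 without replicate 4 at 2 months. Over all genes the count of 7866 was 6112, 6038, 6863 and 6300 in these fits. Isg15, Bst2, Mx1, Usp18 and Trim25 each lost their call in 4 to 6 of the 8 fits and Zbp1 in 1.

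The lists of other genes below are read against the shares of all genes that passed in ARF-DTR DT against ARF-DTR PBS lungs, 15.8% higher and 13.4% lower, and a count near these is no result about its list. Among the interferons themselves, 11 of 19 genes listed were measured, and limma found 0 higher and 3 lower in that comparison, with a median of -0.32. The 3 were Ifna14 (-0.45, adjusted p = 0.00521), Ifnab (-0.45, 0.00287) and Ifna2 (-0.43, 0.0136), all alpha interferons. Their probes were dim, between -4.49 and -2.42 on the arrays of this comparison. Those arrays lie on 2 slides of unlike brightness. Their 75th percentile was 613 to 725 with DT and 900 to 1070 with PBS. The part of dimness and slide in these differences was not tested. The alpha interferon genes are close copies of each other, and their probes may share RNA. Ifng, the gene of interferon gamma, was at -2.54, -2.52, -2.38 and -1.80 with DT, against -2.03, -3.89, -3.42 and -2.79 with PBS, and the overlapping groups differed by 0.72 ± 0.33 (SE, adjusted p = 0.121). With PBS, 5 of the 11 interferon genes were higher in ARF-DTR than in WT lungs (10.9% of all genes), led by Ifna12 (0.83), Ifna14 (0.61) and Ifnk (0.45). These probes were dim too, between -5.24 and -2.42, and this comparison also runs between the slides.

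Of 11 receptor and signalling genes, 5 were higher in ARF-DTR DT than in ARF-DTR PBS lungs by limma and 0 lower, with a median of 0.24. They were led by Ifnar2 (0.38, adjusted p = 0.00227), a chain of the type I receptor, Ifngr2 (0.30, 0.00334), a chain of the gamma receptor, and Stat3 (0.28, 0.00797). Of 7 interferon regulatory factors outside the members 0 passed (1 at an unadjusted p under 0.05, against 41.1% of all genes), Irf1 included (0.19 ± 0.08, 0.0870). Irf1 was lower in ARF-DTR than in WT lungs with PBS (-0.43, 0.00756), and Irf4, a factor of lymphocytes and plasma cells, was higher at 12 than at 2 months (0.84, 0.0351). Of 12 sensors and adaptors 2 were higher with DT, Tmem173 (STING, 0.39) and Tbk1 (the kinase it recruits, 0.38), and 1 was lower, Ikbke (-0.27), shares near those of all genes. Of 9 feedback inhibitors, Socs3 (0.48) and Ptpn2 (0.26) were higher, and Socs1 did not pass (0.10, 0.694).

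Of 25 further gamma targets measured, 7 were higher and 2 lower in ARF-DTR DT than in ARF-DTR PBS lungs, with a median of 0.33. B2m, the light chain of class I antigen complexes, was higher (0.43, limma adjusted p = 0.00822), and Ido1, which breaks down tryptophan (-1.18, 0.00674), and Ciita, the switch of class II genes (-0.57, 0.00577), were lower. Compared with lungs of 2 months, 9 were higher and 1 lower, where 14.8% of all genes were higher and 30.7% passed in either direction. The largest of these differences were those of Cxcl9 and Cxcl10, chemokines that draw T cells. Cxcl9 was at -0.22, -0.75, -0.22 and 0.76 in ARF-DTR DT lungs, against -3.92, -3.86, -4.25 and -4.23 at 2 months (3.96, adjusted p = 0.00156). Cxcl10 was at 1.21, 0.93, 2.53 and 1.59 with DT, against -0.66, -0.63, -1.02 and -0.89 at 2 months (2.36, adjusted p = 0.00111). The groups of both lay far apart. In ARF-DTR lungs given PBS, Cxcl9 was at 0.50, -4.31, -1.84 and -1.22, so that the array lowest in Ubd, replicate 2, was also the lowest in Cxcl9.

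In ARF-DTR DT against ARF-DTR PBS lungs, macrophage and lung tissue markers were called higher more often than all genes. The counts of the other cell types below were near or under the shares of all genes. Of 14 macrophage and monocyte markers measured, 8 were higher and 0 lower by limma in ARF-DTR DT than in ARF-DTR PBS lungs, among them Chi3l3 (0.88), Siglec5 (0.85) and C1qb (0.79). Their signals, each divided by the array's 75th percentile and summed, came to 401 to 539 in ARF-DTR DT, 253 to 399 in ARF-DTR PBS, 289 to 322 at 2 months, 428 to 592 in WT DT and 306 to 324 in WT PBS lungs. DT replicate 3, the array highest in the members, had the highest sum of its group, 539. In WT mice limma called 0 of the 14 macrophage markers between DT and PBS, against 0.184% of all genes. At an unadjusted p under 0.05 it was 10, against 12.7% of all genes. Their median log2 difference with DT was 0.64 in WT and 0.55 in ARF-DTR mice. Of 9 lung tissue markers 5 were higher and 0 lower with DT in ARF-DTR mice, among them Sftpa1 (0.65) and Sftpc (0.50), and all 9 were measured in these samples, as the tissue label says. Of 16 natural killer and T cell markers 1 was higher and 2 lower, with sums of 31.9 to 46.9 in ARF-DTR DT, 25.7 to 40.6 in ARF-DTR PBS, 34.4 to 49.7 at 2 months, 31.1 to 34.3 in WT DT and 43.9 to 45.0 in WT PBS lungs. The highest of these sums in ARF-DTR DT was again that of replicate 3, 46.9, against 34.6 or less on the other 3 arrays. At 2 months it was that of replicate 2, the array highest in the members there, 49.7, against 37.6 or less on the other 3. The macrophage sum of that array was 298, against 322 for replicate 3. By the median difference from the 16-array gene means the order of these 2 arrays was the other way, -0.30 against -0.34. Replicate 1 was the highest by that measure (-0.05). In WT DT lungs replicate 2, the array higher in most members, had the lower macrophage sum, 428 against 592. Its natural killer and T cell sum was lower too, 31.1 against 34.3. In WT PBS lungs replicate 2, again higher in most members, had the lower macrophage sum, 306 against 324. Its natural killer and T cell sum was the higher, 45.0 against 43.9, but its median difference for these markers was the lower, 0.16 against 0.22.

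Of 10 markers of plasmacytoid dendritic cells, which make much of the body's type I interferon, 1 was higher (Siglech, 0.21) and 2 lower (Spib, -0.62, and Pacsin1, -0.40) in ARF-DTR DT than in ARF-DTR PBS lungs. Their sums were 183 to 192 in ARF-DTR DT, 167 to 187 in ARF-DTR PBS, 150 to 197 at 2 months, 166 to 175 in WT DT and 173 to 178 in WT PBS lungs, and thus overlapped. Of 12 B and plasma cell markers 2 were higher and 1 lower, with a median log2 difference of -0.22 and 4 of 12 above 0. The sums, which follow the brightest markers most, were 152 to 230 in ARF-DTR DT and 88.0 to 162 in ARF-DTR PBS. They were 72.8 to 80.8 at 2 months, 188 to 202 in WT DT and 134 to 158 in WT PBS lungs. In the comparison of 12 with 2 months, 5 of these 12 were higher and 0 lower, against 2.73% and 3.41% of all genes. Of 10 neutrophil markers limma called 0 with DT in ARF-DTR mice (0 at an unadjusted p under 0.05, against 41.1% of all genes). In the comparison of genotypes with PBS it called 2 lower, against 12.7% of all genes. The part of these cell types in the members' differences was not tested.

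Several members had more than 1 probe above background, and the brightest was used. In ARF-DTR DT against ARF-DTR PBS lungs the other probe gave a like difference for Isg15 (1.44), Oas1a (0.70) and Irgm1 (0.57). For Zbp1 (1.44, limma adjusted p = 0.0381 over all kept probes), Cmpk2 (0.39, 0.0332) and Ifih1 (0.51, 0.00217) the other probe passed where the probe used did not. For Ddx58 (0.07), Trim25 (0.02), Xaf1 (0.14), Psmb9 (-0.12) and Parp9 (-0.21) it gave a smaller or opposite difference, so that calls of the first 4 rest on 1 of their probes. The other probes of Ifih1, Xaf1, Psmb9 and Parp9 were dim, at mean levels of -3.43, -3.02, -4.77 and -5.06 over the 16 arrays. Those of Ddx58 (-1.24) and Trim25 (4.28) were brighter. Other probes that passed where the one used did not were those of Ifih1 in ARF-DTR DT against 2 months (0.33, 0.0158), and of Cmpk2 (-0.62, 0.0122) and Dtx3l (-0.72, 0.0354) in ARF-DTR against WT with PBS. That of Dtx3l was dim too, at a mean level of -3.43. On build mm9, which the array files use, the Isg15 probe lies at chr4:155573649-155573708 (minus strand), the Psmb9 probe at chr17:34319174-34319233 (minus strand) and the Ubd probe at chr17:37332688-37332747 (plus strand).

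The response element did not separate the members that passed from the rest by much. Of the 18 members that were higher in ARF-DTR DT than in ARF-DTR PBS lungs, 14 had a promoter on hand, and 8 of these (57.1%) held the core. Of the other 22 members 18 had one, and 8 (44.4%) held it. Offsets of the matches ran from -222 to 32 bases from the start site, and 8 members had several. Psmb9, Psmb8 and Ubd, 3 gamma-type genes called in the comparison with lungs of 2 months, were without a match, while Gbp2, Gbp3 and Igtp, with a match, were not called in any comparison and Irgm1, with a match, was called in ARF-DTR DT against ARF-DTR PBS.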

How the data were processed

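Lung RNA labelled with Cy3 was hybridised to single-colour Agilent arrays. The deposited scanner files hold intensity values read with Agilent Feature Extraction 10.10.1.1, per the submitters' processing notes, and the intensity used here is background-subtracted and detrended within the array, per the file headers, but not scaled between arrays. The authors' table of the series holds log2 values, which differed from log2 signal minus the array's 75th percentile by a median of 0.004 to 0.0105 per array. No further step of the authors is stated in those notes, headers or labels. The 75th percentile, 613 to 1088 intensity units, describes how bright the arrays were. The precision of the differences rests on the spread between samples and on the number of arrays per group.

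Control spots, which the files mark, and spots with a nonuniform or population outlier mark (105 to 171 per array) were left out, and 0 spots of the kept probes were saturated. Spots of a probe were averaged, log2 was taken and the array's 75th percentile was subtracted. Of 55681 probes, the 37037 well above background on at least 4 of 16 arrays were kept, and the brightest stood for each gene name of the files. Groups came from the titles. The free description of WT PBS replicate 1 names DT, and those of the WT DT samples leave it out.

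The 25599 genes were fitted with limma 3.58.1 in R 4.3.3 with a mean per group, all 16 arrays in 1 fit, two-sided tests and Benjamini-Hochberg adjustment over all genes. Called means an adjusted p under 0.05. The fit was first tested on simulated data. Slide could not be fitted as a block, since each group lay on 1 slide. Alternatives were normexp background correction (offset 50), scaling to the array median, quantile normalization, other filters and probe rules, RefSeq names, the table of the authors, a replicate block, only the groups compared, and leaving out each array.

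The 40 members and all other lists were chosen with earlier results of these data known. All 40 are accounted for. In each comparison Isg15, Ifit1, Irf7, Stat2, Gbp2, Ubd, Psmb8 and Tap1 are named, with up to 4 called genes of each type with the largest difference (the 2 with the smallest p where none was called). Of each other list up to 3 called genes and Irf1, Ifng and Socs1 are named (1 further gene of this rule is not reported here), and any further gene was chosen after its values were seen. Files were read with the R package data.table (version 1.17.8). Figures were drawn with Python 3.11.15, pandas 2.3.3 and matplotlib 3.10.9.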

Additional observations from a re-analysis of the deposited data

Results flagged for a closer look

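In groups of 4 arrays, the gap of the highest or lowest array to its nearest neighbour, divided by the range of the group, was set against Dixon's 95% critical value of 0.829. Chance passes this value in about 1 in 20 groups. Among the 40 members it was passed by 8 in ARF-DTR DT, by 1 in ARF-DTR PBS and by 3 at 2 months, and the members vary together, so that these are not separate tests.

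In ARF-DTR DT lungs replicate 3 was the high array in each case. The share of the range was 0.849 for Isg15, 0.836 for Ifit1, 0.873 for Ifit3, 0.873 for Irf7, 0.856 for Oas1a, 0.963 for Oasl2, 0.85 for Ifi44 and 0.866 for Dhx58. The list medians of that array stood out too, with 0.848 for the type I genes, 0.869 for the gamma-type genes and 0.895 for all 40. In ARF-DTR PBS lungs replicate 1 was low in Ifi35 (0.961). At 2 months replicate 2 was high in Ifit1 (0.893), Mx2 (0.865) and Dtx3l (0.946).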

How the results depend on the processing

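Counts of called members (limma, of 40) were compared over 10 settings per comparison and over fits without 1 array. With age, 1 member was called, against 5 with normexp, 6 with scaling to the array median (1 higher, 5 lower), 2 with quantile normalization and 5 with only the groups compared. For ARF-DTR DT against ARF-DTR PBS, 18 were called, against 36 with scaling to the array median, and 15 to 24 in the other settings. That scaling moved the median of all genes to 0.18, and the split of all calls was 8675 higher and 1752 lower, against 4051 and 3443; normexp gave 7204 and 2556 with a median of 0.09. For ARF-DTR DT against 2 months, 11 were called, against 7 with quantile normalization, 7 with no filter on dim probes and 7 with only the groups compared; normexp split all calls into 6710 higher and 3260 lower, against 3782 and 4084. For ARF-DTR against WT with PBS, 6 were called, against 10 with scaling to the array median, which moved the median of all genes to -0.12 (1933 higher and 4333 lower, against 2792 and 3252; normexp 1892 and 5920, median -0.11). The age median moved to -0.12 with it (529 higher and 1454 lower, against 699 and 872), and the interaction median to 0.14 (normexp 0.11). The 1 call against WT PBS became 0 with only the groups compared. Of 21 called values of named genes, the sign of 1 turned in these settings and of 0 without 1 array: Psmb9 in ARF-DTR against WT with PBS was 0.05 (0.049, adjusted p = 0.892) as the mean over its probes. The other Psmb9 probe was dim, at a mean level of -4.77, against 3.86 for the probe used. Of 68 values that were not called, 7 turned in these settings and 24 without 1 array. The cause of these shifts was not tested.

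Without 1 array the count was 1 to 2 for age, 13 to 20 for ARF-DTR DT against PBS, 5 to 12 for ARF-DTR DT against 2 months, 0 to 7 for ARF-DTR against WT with PBS and 0 to 1 for ARF-DTR DT against WT PBS. It was 0 in every such fit for ARF-DTR DT against WT DT, DT against PBS in WT and the interaction. Over all genes, fits without 1 array called 921 to 1776 for age, against 1571 with all arrays. They called 5378 to 7754 for ARF-DTR DT against PBS (7494 with all arrays) and 6038 to 8356 against 2 months (7866). With the replicate number as a block the counts of members were 1 for age, 19 for ARF-DTR DT against PBS, 10 against 2 months, 5 for the genotypes with PBS (Psmb9 -0.57, adjusted p = 0.0523), 1 against WT PBS and 0 for the rest. In their deviations from the group means, same-numbered arrays correlated at -0.2 to 0.331 (median 0.061, 26 pairs, 7 over 0.1). Arrays of other numbers correlated at -0.245 to 0.279 (median -0.0115, 74 pairs, 9 over 0.1). In groups of 2 arrays the deviations mirror each other. Whether the numbers pair the samples thus cannot be told from these values.

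Slide and group cannot be told apart in 4 comparisons, the WT groups hold 2 samples each, and Ubd was near background at 2 months, so that its fold is a bound.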
